A study of Mus musculus with 12 samples.

Results

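The proteasome is the enzyme complex that degrades most ubiquitin-tagged proteins of a cell. The genes described here are those of its subunits: the alpha ring, the structural and catalytic beta subunits, the immunoproteasome beta subunits, the ATPases and non-ATPase subunits of the regulatory particle, and the alternative activators. They were chosen by gene symbol, with earlier results of these data known. Of the 38 genes named, 37 had a probe set assigned to them without another gene. Psme2 was not analysed here, because its probe set names 2 genes. The 37 genes stand among 11862 genes with a signal high enough to be tested, and all 37 were above the filter on low signal.

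Whole-lung RNA was hybridised to 12 Affymetrix mouse expression arrays, 3 for each of 4 groups, from mice aged 8 to 10 weeks and sampled 8 h after surgery. The groups were PPTA knockout mice after cecal ligation and puncture (CLP), PPTA knockout mice after sham surgery, wild-type mice after CLP and wild-type mice after sham surgery. CLP opens the gut into the abdomen and is a standard model of sepsis from abdominal infection. The gene named PPTA in the labels is now called Tac1 and encodes the precursor of the neuropeptide substance P. The strain is given as Balb/c for the wild-type mice and is not given for the knockout mice, and in comparisons between them strain and genotype cannot be told apart. The labels do not say whether the 3 arrays of a group came from separate mice, and the spread that the p-values rest on may therefore be technical.

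The probe set for Tac1 went against the labels. Its signal was 336.8 to 530.3 on the 6 arrays labelled knockout, against 2.8 to 16.07 on the 6 wild-type arrays. The mice are therefore called knockout-labelled throughout. The log2 difference, knockout-labelled minus wild-type, was 5.70 after sham and 4.97 after CLP. The labels do not say which part of the gene was deleted, so the probe set may not read the deletion itself. The cause of the higher signal, and whether the labels are right, was not tested. Each array had been scaled to the same trimmed mean, and array medians were 31.06 to 33.2 after CLP and 37.66 to 38.44 after sham in knockout-labelled mice, and 32.43 to 34.1 after CLP and 35.24 to 36.7 after sham in wild-type mice. The ratio of 3′ to 5′ signal of the actin control, a check of RNA quality, was 1.276 to 1.45 on the knockout-labelled CLP arrays. It was 1.466 to 1.629 on all other arrays. The Gapdh ratio was 0.6784 to 0.8427 on the knockout-labelled CLP arrays and 0.7293 to 0.9126 on all others. The part of these ratios in the proteasome results was not tested. Replicate 3 of the knockout-labelled sham arrays stood apart from the other two. A fit that lets noisier arrays count less gave it a weight of 0.1935. Replicates 1 and 3 of the knockout-labelled CLP arrays had 0.4196 and 0.3175, and all other arrays 1.143 or more. Correlations between arrays within a group went down to 0.9522 among the CLP arrays and 0.9367 among the sham arrays of knockout-labelled mice, and were 0.9826 or higher in both wild-type groups. Calls that change without replicate 3 of the knockout-labelled sham arrays are named with the results they touch.

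In the proteasome, 7 kinds of alpha subunit form the outer rings of a barrel-shaped core and gate the entry of substrates, and beta subunits form the inner rings that hold the cutting sites. Regulatory particles at the ends of the barrel recognise ubiquitin, unfold the substrate with ATPases and feed it inward. Interferons induce 3 alternative catalytic subunits, encoded by Psmb8, Psmb9 and Psmb10, which replace Psmb5, Psmb6 and Psmb7 to make the immunoproteasome, the form that cuts peptides for class I antigen presentation. In lung, immune cells carry much of the immunoproteasome, and epithelial cells gain it under interferon.

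Among the proteasome genes, 2 of 7 alpha subunits, 2 of 4 structural beta subunits, 2 of 3 constitutive catalytic subunits and 5 of 11 non-ATPase subunits rose after CLP in knockout-labelled lungs, and the immunoproteasome gene Psmb9 fell. Of the 37 genes, 11 rose and 1 fell at an adjusted p under 0.05 (limma, Benjamini-Hochberg adjustment over 24574 probe sets). Over all genes tested, 11.4% rose and 19.9% fell in the same comparison. The median log2 difference of the 37 genes was 0.18, against -0.11 over all genes, and 31 of the 37 lay above 0. All 37 were bright, with mean signals of 148.4 to 2742, against a typical array median of 34.669. The values over all genes, here and below, include dimmer genes and were not matched for signal. In wild-type lungs the same surgery moved none of the 37 past the threshold, where 1.10% of all genes rose and 0.0590% fell. The median of the 37 was -0.0255 there, beside -0.0306 over all genes. In limma's test 1 of the 37, Psma6, had an unadjusted p under 0.05 in wild-type lungs, with a log2 difference of 0.18.

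**Figure D1:**
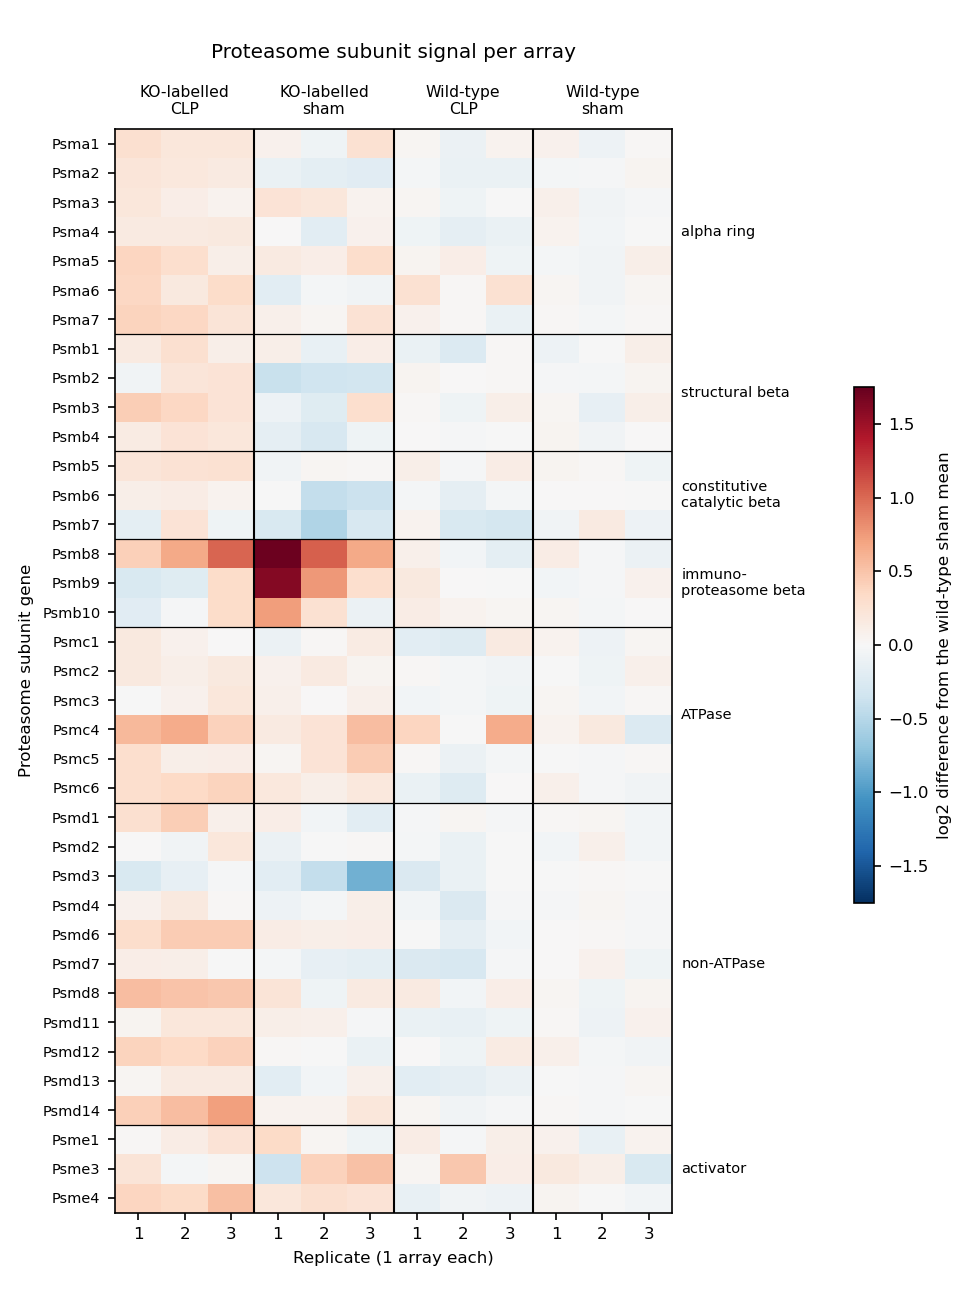
Heat map of the 37 measured proteasome subunit genes (rows, grouped by role) on the 12 arrays (columns, 3 replicates a group), coloured by the log2 difference of each array from the mean of the 3 wild-type sham arrays. The knockout-labelled CLP arrays are mostly red outside the immunoproteasome rows, where the deepest red lies on the first knockout-labelled sham array.

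Taking each gene relative to its wild-type sham mean, the median over the 37 genes was 0.19, 0.20 and 0.19 on the log2 scale on the knockout-labelled CLP arrays, against 0.064, 0.0025 and 0.089 on the knockout-labelled sham arrays. It was 0.014, -0.073 and -0.013 on the wild-type CLP arrays. Single genes differed more between the knockout-labelled CLP arrays than this median did: Psmb2 was at -0.060, 0.21 and 0.24. On 15 of the 37 genes all CLP arrays lay above all sham arrays in knockout-labelled mice, and on none did they all lie below, where 13.8% of all genes had all CLP arrays above and 24.5% all below (11.4% and 19.9% were called higher and lower). The scaling matters for these counts, because the array medians of the CLP and sham groups differ: with each array centred on its median, the median of all probe sets moved to 0.12 on the log2 scale from the -0.12 of the reported fit, 29 of the 37 genes rose and none fell. The median of the 37 genes moved in the same direction, to 0.43 from 0.18. With quantile normalisation 7 rose and 1 fell, with medians of 0.10 for the 37 and -0.034 for all probe sets. The shares of all genes called in these fits are not given here, so neither count alone sets the 37 genes apart.

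Among the alpha subunits, Psma2 and Psma6 rose after CLP in knockout-labelled lungs, 2 of the 7. Psma2 had signals of 2238, 2206 and 2150 after CLP, against 1786, 1716 and 1687 after sham, in knockout-labelled lungs. Its signals in wild-type lungs were 1893, 1778 and 1792 after CLP and 1894, 1914 and 1993 after sham. The knockout-labelled arrays did not overlap between surgeries, and the wild-type CLP arrays all lay just below the wild-type sham arrays. The log2 difference for Psma2 was 0.35 ± 0.064 (SE, n = 3 arrays a group; 1.27-fold; adjusted p = 0.00227) in knockout-labelled mice and -0.087 ± 0.064 (adjusted p = 0.833) in wild-type mice. The difference between these responses was 0.43 ± 0.091 (adjusted p = 0.0275), and Psma2 was the one gene of the 37 to pass that test, in which 1.85% of all genes were called higher and 3.13% lower. That call was kept in 4 of the 12 fits that each left out 1 array. Psma6 read 3269, 2869 and 3197 after CLP, against 2248, 2495 and 2435 after sham, in knockout-labelled lungs, a log2 difference of 0.38 ± 0.084 (adjusted p = 0.00585). In wild-type lungs Psma6 read 3073, 2596 and 3057 after CLP and 2616, 2436 and 2610 after sham, and its difference of 0.18 did not pass (adjusted p = 0.581). Psma3 lay at the low end of the alpha ring, with a difference of -0.043 in knockout-labelled lungs (adjusted p = 0.685).

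Of the 4 structural beta subunits, which line the inner rings without cutting, Psmb2 and Psmb4 rose after CLP in knockout-labelled lungs. Psmb2 read 527.7, 636.8 and 652.8 after CLP, against 417.8, 430.7 and 438.8 after sham. In wild-type lungs it read 570.1, 555.2 and 558.7 after CLP and 540.8, 539.4 and 571.4 after sham. The knockout-labelled sham arrays were thus the lowest of the 4 groups, and the knockout-labelled CLP arrays spanned the wild-type level. Its log2 difference was 0.49 ± 0.097 (1.40-fold; adjusted p = 0.0032), the largest rise of the 37 genes in this comparison, and 0.028 ± 0.097 (adjusted p = 0.984) in wild-type mice. Psmb4 read 2564, 2736 and 2665 after CLP, against 2079, 1913 and 2195 after sham, in knockout-labelled lungs, a log2 difference of 0.37 ± 0.069 (adjusted p = 0.00243). The difference of the CLP responses between genotypes was 0.46 for Psmb2 (adjusted p = 0.0756) and 0.37 for Psmb4 (adjusted p = 0.0534), neither past the threshold. Psmb1 and Psmb3 had differences of 0.15 and 0.34 that did not pass (adjusted p = 0.264 and 0.053). Without replicate 3 of the knockout-labelled sham arrays, Psmb2 passed the test of the difference between responses (0.48, adjusted p = 0.0415), as did Psmb4 (adjusted p = 0.0127). Psmb3 then rose after CLP (adjusted p = 0.00279) and passed the test of the difference between responses too (adjusted p = 0.0348). Over the 12 fits that each left out 1 array, 0 to 8 of the 37 genes passed that test, with 8 in this fit. None passed when any single wild-type array was left out.

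**Figure D2:**
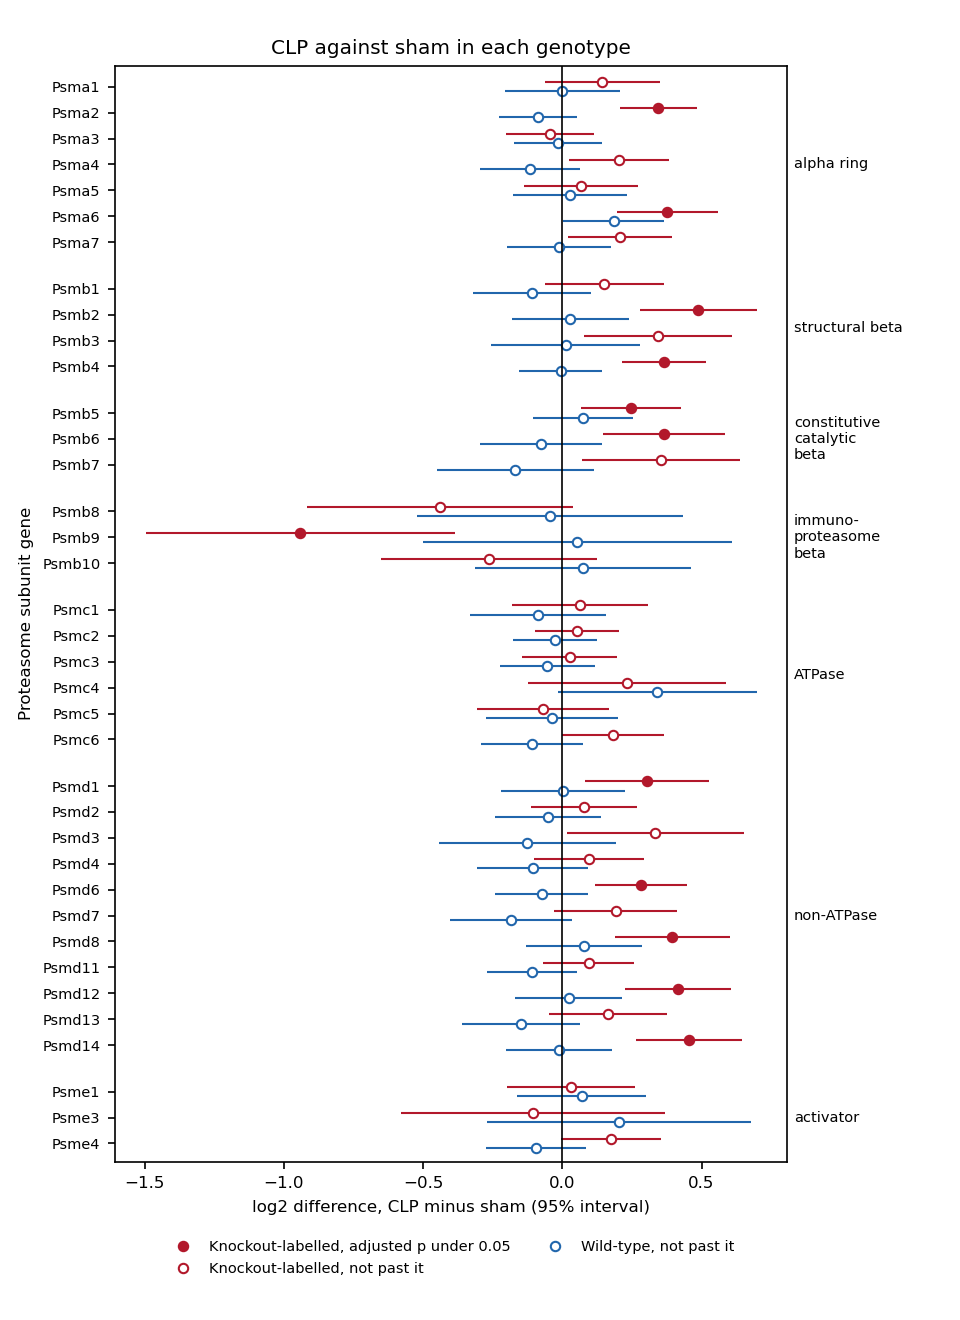
Log2 difference between CLP and sham for each of the 37 genes (rows, by role) in knockout-labelled (red) and wild-type (blue) lungs, with 95% intervals from limma, 3 arrays a group. Filled points passed an adjusted p of 0.05. Red points lie right of the blue ones for most core and non-ATPase genes and left of them for the 3 immunoproteasome genes.

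The catalytic subunits fell into 2 sets with opposite signs of the CLP difference in knockout-labelled lungs. The constitutive subunits Psmb5, Psmb6 and Psmb7, which carry the chymotrypsin-like, caspase-like and trypsin-like activities, had higher signals on every CLP array than on any sham array. Their interferon-induced replacements Psmb8, Psmb9 and Psmb10 had lower means after CLP, with overlapping arrays. The promoters of the first 2 pairs, Psmb8 with Psmb5 and Psmb9 with Psmb6, are shown here because the catalytic subunits are the genes whose alternative forms had opposite signs. Each runs 5′ to 3′ on the gene's strand, from 250 bases before the start of transcription to 50 after it, as RefSeq gives them on GRCm38.p6. They lie at chr17:34197945-34198244 (Psmb8, plus strand), chr14:54617946-54618245 (Psmb5, minus strand), chr17:34187281-34187580 (Psmb9, minus strand) and chr11:70525107-70525406 (Psmb6, plus strand). Capitals mark matches to a searched motif.
Psmb8: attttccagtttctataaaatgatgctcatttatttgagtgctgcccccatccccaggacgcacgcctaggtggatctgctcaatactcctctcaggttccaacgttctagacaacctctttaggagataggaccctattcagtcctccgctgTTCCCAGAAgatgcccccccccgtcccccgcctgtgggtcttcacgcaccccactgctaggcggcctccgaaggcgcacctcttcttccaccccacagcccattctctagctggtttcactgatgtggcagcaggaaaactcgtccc
Psmb5: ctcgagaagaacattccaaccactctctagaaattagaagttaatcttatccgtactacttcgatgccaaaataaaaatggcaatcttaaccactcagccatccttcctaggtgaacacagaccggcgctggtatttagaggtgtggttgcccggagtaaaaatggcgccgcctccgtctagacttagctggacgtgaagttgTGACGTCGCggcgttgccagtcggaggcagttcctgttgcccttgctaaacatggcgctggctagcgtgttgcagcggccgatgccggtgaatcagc
Psmb9: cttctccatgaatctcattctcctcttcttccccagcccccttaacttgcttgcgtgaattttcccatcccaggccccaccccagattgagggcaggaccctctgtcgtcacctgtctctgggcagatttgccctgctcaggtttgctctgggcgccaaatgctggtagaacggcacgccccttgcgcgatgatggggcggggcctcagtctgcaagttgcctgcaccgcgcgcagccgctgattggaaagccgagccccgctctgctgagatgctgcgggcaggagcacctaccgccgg
Psmb6: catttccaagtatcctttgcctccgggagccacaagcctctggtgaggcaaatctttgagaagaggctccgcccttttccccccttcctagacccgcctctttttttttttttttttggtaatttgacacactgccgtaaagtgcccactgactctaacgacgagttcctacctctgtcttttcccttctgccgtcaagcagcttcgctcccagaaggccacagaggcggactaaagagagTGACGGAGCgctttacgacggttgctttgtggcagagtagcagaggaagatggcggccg

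The promoters of the 31 genes for which the table holds one were searched on both strands for 3 motifs. The interferon-stimulated response element was written GAAANNGAA, the gamma-activated site TTCNNNGAA and the antioxidant-type element TGACNNNGC, and no match overlapped another in these 31 promoters. Psmb8 holds TTCNNNGAA, starting at position -97 from its start of transcription, a motif that 8.3% of all 32851 promoter windows hold. Psmb5 and Psmb6 hold TGACNNNGC, starting at positions -47 and -9, a motif in 12.4% of all windows. The letters of none of the 3 motifs are in the Psmb9 window. Of the 31 genes, 5 hold TGACNNNGC (Psmb5, Psmb6, Psmc6, Psmd12 and Psme4), 5 hold GAAANNGAA (Psmb3, Psmb4, Psmc2, Psmd4 and Psme1), which 8.56% of all windows hold, and 2 hold TTCNNNGAA (Psmb8 and Psmd2). These matches describe the letters of the windows and do not show binding.

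Psmb5 read 774.5, 796.3 and 807.8 after CLP, against 640.6, 684.5 and 677.7 after sham, in knockout-labelled lungs. Psmb6 read 1273, 1302 and 1241 after CLP, against 1182, 886.8 and 916.7 after sham. Psmb7 read 1788, 2381 and 1912 after CLP, against 1674, 1403 and 1658 after sham. The groups did not overlap in any of the 3 genes, though for Psmb6 and Psmb7 the nearest sham array came close to the CLP arrays. Psmb5 (0.25 ± 0.083, adjusted p = 0.0399) and Psmb6 (0.36 ± 0.10, adjusted p = 0.0184) rose, and Psmb7 (0.35 ± 0.13, adjusted p = 0.0584) did not pass. The call for Psmb5 was kept in 3 of the 12 fits that each left out 1 array. In wild-type lungs the differences were 0.074, -0.076 and -0.17 for Psmb5, Psmb6 and Psmb7, with adjusted p of 0.845 or higher.

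Psmb9 read 318.3, 329.3 and 478.2 after CLP, against 1173, 651 and 471 after sham, in knockout-labelled lungs. In wild-type lungs it read 429.9, 384.3 and 378.7 after CLP and 368.8, 376.6 and 401.8 after sham. The knockout-labelled sham arrays ran from well above the wild-type level to near it, and the highest CLP array passed the lowest sham array. Psmb9 fell by 0.94 ± 0.26 on the log2 scale (0.521-fold; adjusted p = 0.0163) in knockout-labelled lungs and differed by 0.054 ± 0.26 (adjusted p = 0.986) in wild-type lungs. The 2 standard errors are equal because the fit shares 1 spread across all 4 groups. The wild-type arrays alone spread less, as given below. The difference between these responses, -0.996 ± 0.36, did not pass (adjusted p = 0.129). Without replicate 3 of the knockout-labelled sham arrays it was -1.29 and was called (adjusted p = 0.0152). The fall of Psmb9 was no longer called with arrays centred on their medians (adjusted p = 0.055), nor without replicate 2 of the knockout-labelled CLP arrays (adjusted p = 0.0603), nor in a fit of the knockout-labelled arrays alone (adjusted p = 0.0941).

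Psmb8 read 545.1, 644.2 and 825.9 after CLP, against 1339, 842.1 and 643.1 after sham, in knockout-labelled lungs. In wild-type lungs it read 432.2, 393.3 and 358.6 after CLP and 443.9, 398.1 and 377.8 after sham. All 6 knockout-labelled arrays lay above all 6 wild-type arrays, while the CLP and sham arrays overlapped within each genotype. Psmb10 read 451.8, 510.3 and 646.4 after CLP, against 861.2, 623.4 and 481.5 after sham, in knockout-labelled lungs, and 564.6, 537.6 and 530.8 after CLP and 529, 502.2 and 518.8 after sham in wild-type lungs. The CLP differences in knockout-labelled lungs, -0.44 for Psmb8 (adjusted p = 0.152) and -0.26 for Psmb10 (adjusted p = 0.285), did not pass. Without replicate 3 of the knockout-labelled sham arrays all 3 immunoproteasome genes fell: Psmb9 by 1.24, Psmb8 by 0.68 and Psmb10 by 0.46, with adjusted p of 0.0013, 0.0185 and 0.0342. Without replicate 1 of that group the differences were -0.58, -0.15 and -0.047, and Psmb9 alone was called (adjusted p = 0.0412).

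**Figure D3:**
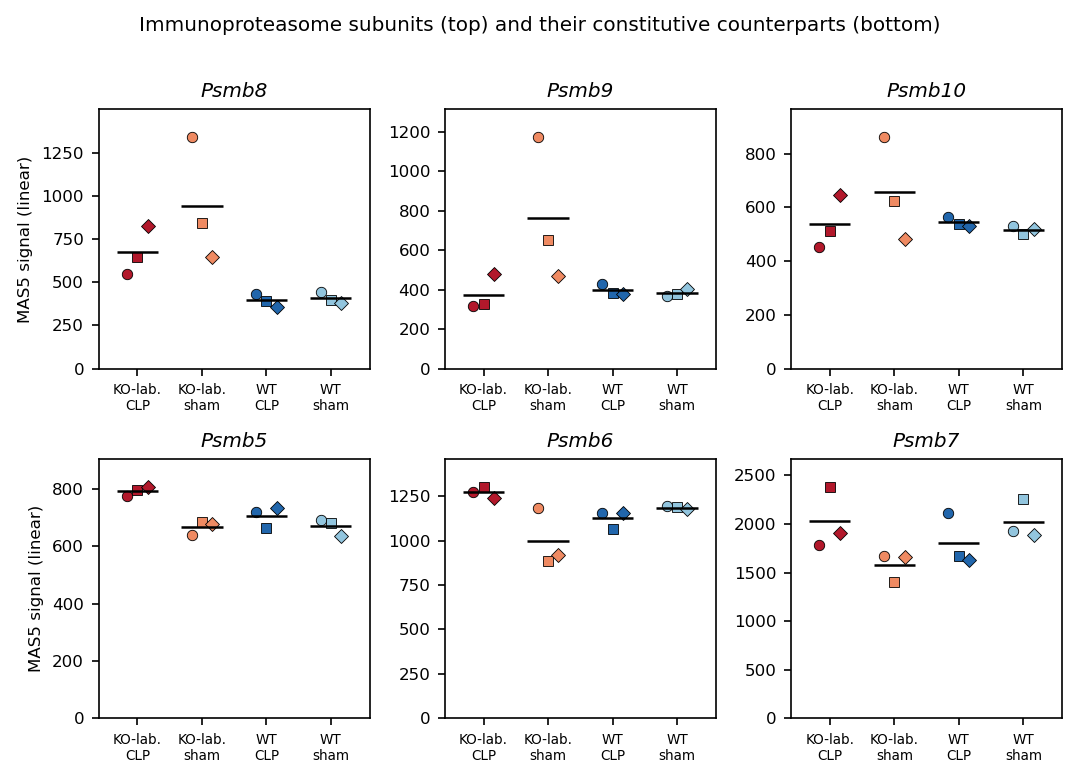
MAS5 signal (linear axis from 0) of the immunoproteasome genes (top) and the constitutive genes they replace (bottom), with 1 point per array, a marker shape per replicate number and a bar at the mean of each group of 3. The knockout-labelled sham arrays spread widely in the top row and lie below all knockout-labelled CLP arrays in the bottom row.

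The 3 immunoproteasome genes varied together between arrays of the knockout-labelled mice. Their mean relative to the wild-type sham arrays was -0.010, 0.14 and 0.55 on the log2 scale on the CLP arrays, against 1.35, 0.69 and 0.29 on the sham arrays, replicates 1 to 3. The wild-type CLP arrays had 0.13, 0.0070 and -0.050. The within-group SD of log2 signal of these genes was 0.42 to 0.66 among knockout-labelled sham arrays and 0.26 to 0.32 among knockout-labelled CLP arrays, against at most 0.13 in both wild-type groups. Of the other 34 genes 1, Psme3, had an SD above 0.42 among the knockout-labelled sham arrays, and the largest SD of the 34 among the CLP arrays was 0.22. The mean of the 10 class I loading genes measured, of 11, had the same order of arrays within both knockout-labelled groups: it was 0.21, 0.49 and 0.74 on the CLP arrays, against 0.75, 0.45 and -0.013 on the sham arrays. Tap1, Tap2, Tapbp and Nlrc5 each followed this order, and the other 6 did not: Calr, a chaperone of class I assembly, read 3220, 2541 and 2532 on the CLP arrays. Tap1, a subunit of the peptide transporter that lies beside Psmb9 in the genome, read 149, 270.2 and 502.7 after CLP, against 418, 213.5 and 120 after sham, in knockout-labelled lungs, and 98.67 to 146.6 on the wild-type arrays. Nlrc5, the transactivator of class I genes, read 88.26, 132 and 366.2 after CLP, against 311.5, 229.8 and 86.65 after sham.

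In the regulatory particle the calls lay among the non-ATPase genes. None of the 6 ATPase genes passed after CLP in knockout-labelled lungs, with a median difference of 0.057 and a smallest adjusted p of 0.124 for Psmc6, and Psmc4 had the largest difference of the class (0.23, adjusted p = 0.309). At an unadjusted p under 0.05 the ATPase count was also 0. A second probe set of Psmc4 disagreed with the first: it had a difference of 0.46 (adjusted p = 0.00663), and a second probe set of Psmc6 had 0.33 (adjusted p = 0.0105). The count of 0 therefore holds for the brightest probe set of each gene. Of the 11 non-ATPase genes 5 rose: Psmd1, Psmd6, Psmd8, Psmd12 and Psmd14. Psmd14, the deubiquitinase that removes ubiquitin chains as substrates enter, read 1226, 1334 and 1502 after CLP, against 956.4, 952.7 and 1046 after sham, in knockout-labelled lungs. In wild-type lungs it read 937, 879.9 and 905.9 after CLP and 931.7, 904.5 and 908 after sham. The knockout-labelled CLP arrays exceeded all 9 others. Its CLP difference was 0.45 ± 0.088 (1.37-fold, adjusted p = 0.00278), beside -0.012 ± 0.088 (adjusted p = 0.991) in wild-type lungs. The difference between these responses was 0.47 (adjusted p = 0.055) and was called without replicate 3 of the knockout-labelled sham arrays.

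Psmd12, a scaffold subunit of the lid, read 923.5, 902.8 and 938.2 after CLP, against 718.3, 699.8 and 652.9 after sham, in knockout-labelled lungs, and 710.3, 666.6 and 777.4 after CLP and 751.6, 691.8 and 674.5 after sham in wild-type lungs. Only the knockout-labelled CLP arrays stood above the rest, and the difference was 0.42 ± 0.088 (adjusted p = 0.00464). Psmd8, another lid subunit, read 1343, 1311 and 1280 after CLP, against 1088, 876.9 and 1036 after sham, in knockout-labelled lungs (0.40 ± 0.096, adjusted p = 0.00907). Psmd6 had a difference of 0.28 (adjusted p = 0.0158). Psmd1, a large scaffold of the base, read 993.8, 1105 and 875 after CLP, against 885.6, 795 and 722.4 after sham, so that its arrays overlapped, and its difference of 0.30 (adjusted p = 0.0411) was kept in 2 of the 12 fits that each left out 1 array. At the low end of the class, Psmd2, the scaffold that docks ubiquitin shuttles, had a difference of 0.079 (adjusted p = 0.531). Of the activators, none passed after CLP in knockout-labelled lungs. Psme1, a subunit of the interferon-induced activator, had 0.031 (adjusted p = 0.852), Psme3, its nuclear relative, -0.11 (adjusted p = 0.746) and Psme4, a nuclear activator, 0.17 (adjusted p = 0.132).

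**Figure D4:**
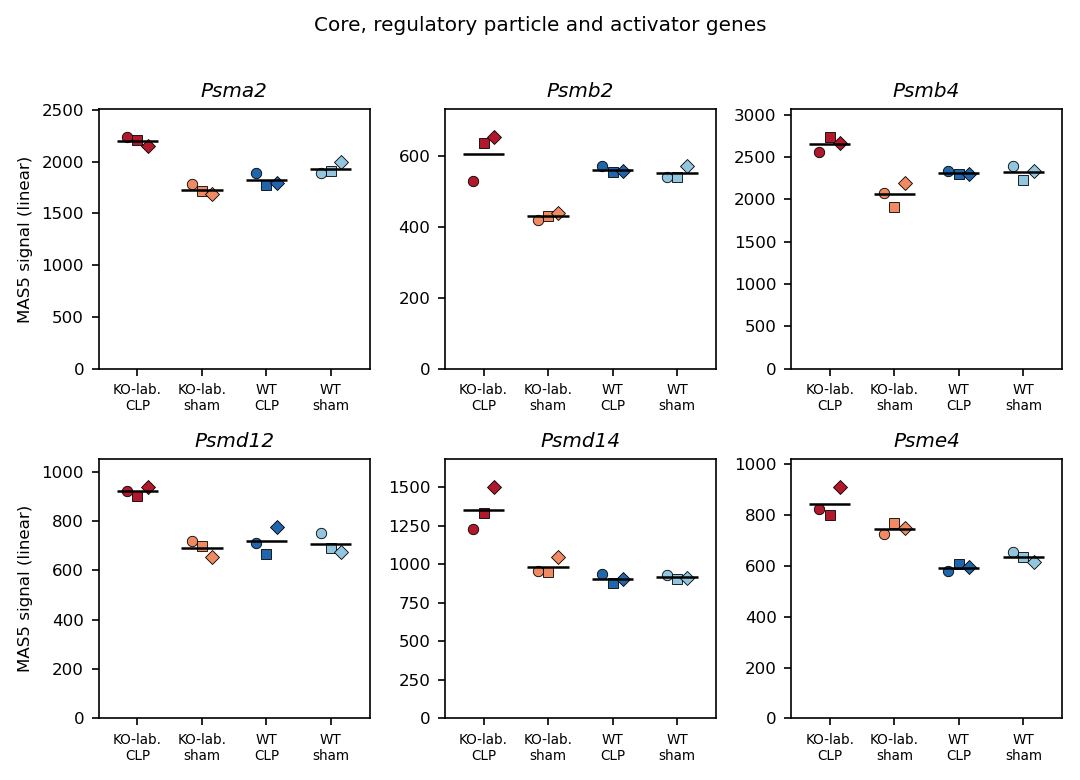
MAS5 signal (linear axis from 0) of 6 core, regulatory particle and activator genes, with 1 point per array, a marker shape per replicate number and a bar at the mean of each group of 3. In Psma2, Psmb4, Psmd12 and Psmd14 the 3 knockout-labelled CLP arrays lie above the other 9, in Psmb2 the knockout-labelled sham arrays lie below the rest, and in Psme4 both knockout-labelled groups lie above both wild-type groups.

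Second probe sets gave a further reading of some genes. Beside the brightest probe set of each gene, 31 others for 19 of the 37 genes passed the filter. Of these, 16 (for 13 genes) had a mean signal above 200, and 6 of the 16 rose after CLP in knockout-labelled lungs and none fell, where 2553 of all 24574 probe sets tested rose and 4619 fell. The 6 belong to Psma6, Psmb4, Psmc4, Psmc6, Psmd11 and Psmd6, and share their mRNA with the probe sets already counted. None of the 31 was called in wild-type lungs.

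Set against wild-type lungs after the same surgery, the knockout-labelled lungs after CLP had more signal for most proteasome genes. Of the 37, 13 were higher and none lower, where 13.0% of all genes were higher and 18.7% lower. The median difference was 0.21, beside -0.057 over all genes, and 33 of the 37 lay above 0. All knockout-labelled CLP arrays lay above all wild-type CLP arrays in 25 of the 37 genes, and in none did they all lie below, where 21.2% of all genes lay above in this way and 28.7% below. This comparison shares its knockout-labelled CLP arrays with the one above, so the counts of both draw on the same 3 arrays. Those 3 arrays also had the lowest actin control ratios, as given above. After sham, 1 of the 37 was higher and 1 lower, where 4.87% of all genes were higher and 3.89% lower, with medians of 0.055 for the 37 and 0.013 for all genes.

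The genes higher after CLP came from most classes: 3 of 7 alpha subunits (Psma2, Psma4 and Psma7), 2 of 4 structural beta subunits (Psmb1 and Psmb4), the immunoproteasome gene Psmb8, 1 of 6 ATPases (Psmc6), 5 of 11 non-ATPases (Psmd6, Psmd8, Psmd11, Psmd12 and Psmd14) and the activator Psme4. None of the 3 constitutive catalytic genes passed, with differences of 0.16 to 0.18 and a smallest adjusted p of 0.145, and none had an unadjusted p under 0.05. From the values given above, Psmd14 was 0.57 ± 0.088 higher in knockout-labelled CLP lungs (1.49-fold; adjusted p = 6.2e-04), and 0.11 (adjusted p = 0.523) higher after sham. Psmd6 read 1169, 1283 and 1276 in knockout-labelled lungs, against 932.2, 841.6 and 905.6 in wild-type lungs, after CLP, a log2 difference of 0.47 ± 0.077 (adjusted p = 8.31e-04). Psmc6, an ATPase, read 1142, 1187 and 1220 in knockout-labelled lungs, against 864.3, 798.8 and 936.9 in wild-type lungs, after CLP (0.45 ± 0.085, adjusted p = 0.00221). These 3 genes showed no overlap between genotypes after either surgery, and their sham differences were 0.11, 0.12 and 0.16, none past the threshold.

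Psme4, the activator that works in the nucleus and is known for the degradation of acetylated histones, was higher in knockout-labelled lungs after CLP. It read 823.8, 799.9 and 911.3 in knockout-labelled lungs, against 579, 607.6 and 594.7 in wild-type lungs, after CLP. After sham it read 725.5, 768.5 and 747.7 in knockout-labelled lungs, against 655.9, 633.8 and 614 in wild-type lungs. The genotypes did not overlap after either surgery. The log2 difference was 0.50 ± 0.083 after CLP (1.42-fold; adjusted p = 9.76e-04) and 0.23 ± 0.083 after sham (adjusted p = 0.108). Other bright probe sets of Psme4 gave 0.50 and 0.44 after CLP, both past the threshold. A dim one, with a mean signal of 42.19, gave -1.06 (adjusted p = 0.0147). Psmd11 and Psmb1 also had probe sets that disagreed after CLP: beside 0.26 for the brightest probe set of Psmd11, a second bright one gave 0.38 (adjusted p = 0.0115) and the other two gave -0.14 and -0.21, and the mean over the probe sets of Psmb1 was -0.066, beside 0.29 for the brightest.

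**Figure D5:**
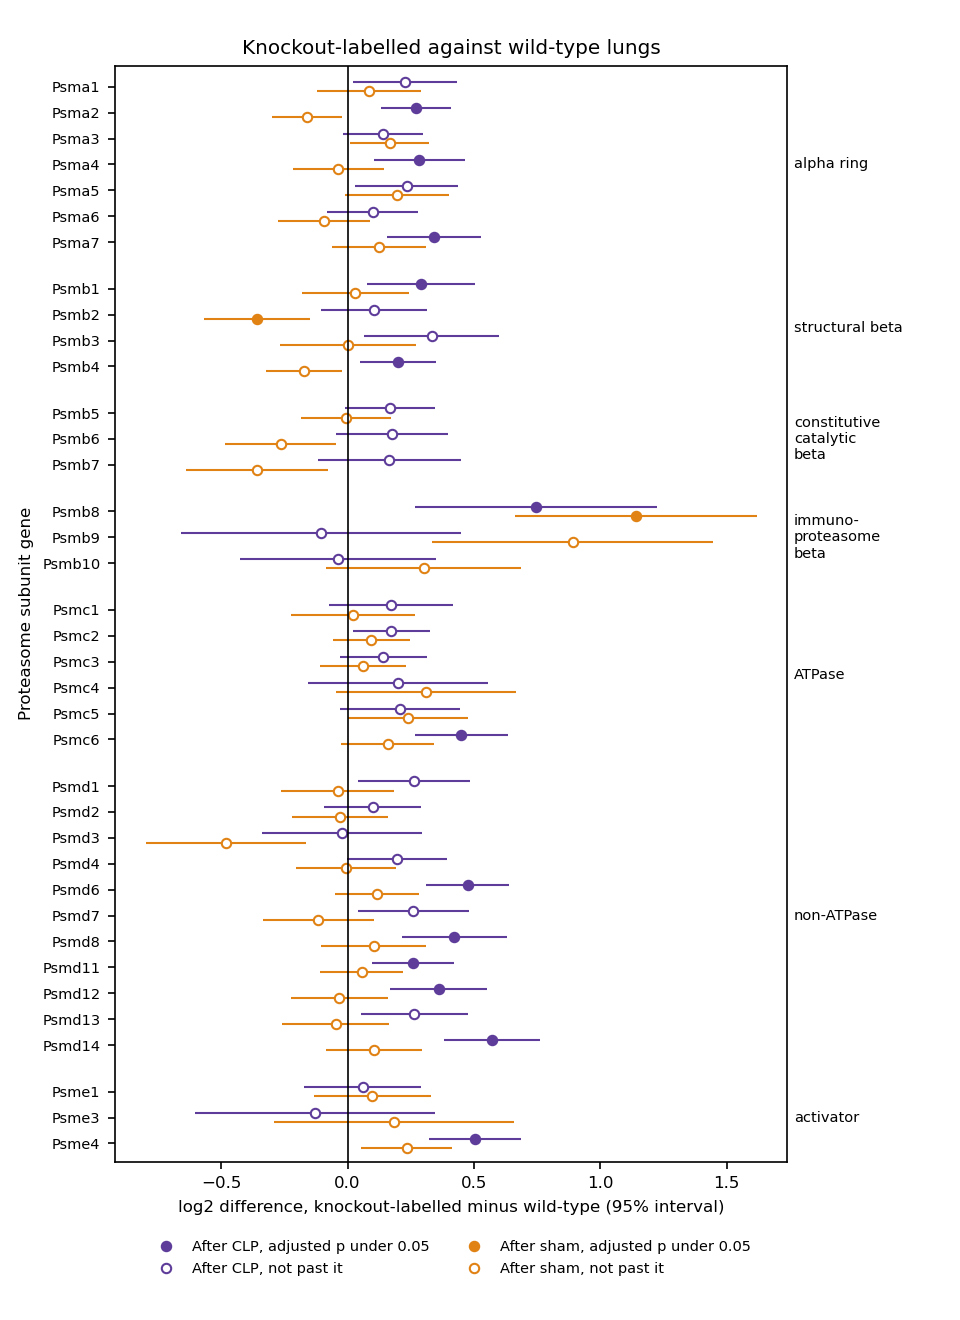
Log2 difference between knockout-labelled and wild-type lungs for each of the 37 genes (rows, by role) after CLP (purple) and after sham (orange), with 95% intervals from limma, 3 arrays a group. Filled points passed an adjusted p of 0.05. Most purple points lie right of 0, and Psmb8 lies farthest right after both surgeries.

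The immunoproteasome gene Psmb8 was higher in knockout-labelled lungs after both surgeries, by 0.75 ± 0.22 after CLP (1.68-fold; adjusted p = 0.0235) and by 1.14 ± 0.22 after sham (2.20-fold; adjusted p = 0.00665). The sham call held in all 12 fits that each left out 1 array, and the CLP call in 8 of the 12. H2-Ea, a gene of the major histocompatibility complex, differed in the opposite direction. Its highest signal in knockout-labelled lungs was 205.6, below its lowest in wild-type lungs, 961.9. Signals of H2-Ob and H2-DMa overlapped between genotypes. Whether a strain difference at this complex bears on Psmb8 or Psmb9, both on chromosome 17, was not tested. Psmb9 differed by -0.11 after CLP (adjusted p = 0.789) and by 0.89 after sham (adjusted p = 0.0505), which missed the threshold although its arrays did not overlap after sham. Without replicate 3 of the knockout-labelled sham arrays Psmb9 was higher after sham by 1.19 (adjusted p = 0.00445). Psmb10 differed by -0.037 after CLP and 0.30 after sham (adjusted p = 0.897 and 0.348). Psmb2 was lower in knockout-labelled lungs after sham, with a log2 difference of -0.36 ± 0.097 (adjusted p = 0.0395), a call kept in 4 of the 12 fits that each left out 1 array, and Psmd3, a lid subunit, had the lowest difference after sham at -0.48 (adjusted p = 0.0633). Psmd3 read 389.7, 331.3 and 247.7 in knockout-labelled lungs, against 442.5, 450.4 and 440.4 in wild-type lungs, after sham.

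The genes that build, regulate and feed the proteasome were read from 3 further lists. Of 16 assembly and accessory genes 14 were measured. After CLP in knockout-labelled lungs 2 of them rose, Usp14 (0.31, adjusted p = 0.0235), a deubiquitinase bound to the regulatory particle, and Sem1 (0.23, adjusted p = 0.0308), a small lid subunit, and 1 fell, Akirin2 (-0.25, adjusted p = 0.031), which carries proteasomes into the nucleus. The list's median was 0.058, beside -0.11 over all genes tested, of which 11.4% rose and 19.9% fell. The share of the list that rose was thus near that of all genes. Against wild-type lungs after CLP, Usp14 was higher by 0.49 (adjusted p = 0.00193) and Pomp, the assembly chaperone of the core, by 0.35 (adjusted p = 0.007). Pomp read 1481, 1717 and 1679 in knockout-labelled lungs, against 1309, 1307 and 1211 in wild-type lungs, after CLP.

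Of 11 class I loading genes and their regulators 10 were measured, and Irf1 alone rose after CLP in knockout-labelled lungs, where 11.4% of all genes rose. Irf1 encodes an interferon-induced transcription factor that binds immunoproteasome promoters. It read 1141, 2828 and 2745 after CLP, against 1187, 748.8 and 521.6 after sham, in knockout-labelled lungs, and 811.6, 789.4 and 771.1 after CLP and 620.2, 530.9 and 572.2 after sham in wild-type lungs. The knockout-labelled arrays overlapped, with 1 CLP array at the level of the highest sham array, and the difference was 1.41 ± 0.32 (adjusted p = 0.00629). In wild-type lungs it was 0.46 ± 0.32 (adjusted p = 0.81) without overlap of the arrays, with a standard error from the spread shared by all 4 groups. Irf1 was also higher in knockout-labelled than in wild-type lungs after CLP (1.38, adjusted p = 0.0067). Tap1 (0.30, adjusted p = 0.625), Tap2 (-0.25, adjusted p = 0.543), Tapbp (-0.027, adjusted p = 0.904) and Nlrc5 (-0.18, adjusted p = 0.808) did not pass after CLP in knockout-labelled lungs. B2m, the light chain of class I molecules, was higher in knockout-labelled lungs by 0.35 after CLP (adjusted p = 0.00282) and by 0.38 after sham (adjusted p = 0.00445).

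Of 18 genes of ubiquitin supply and substrate delivery 11 were measured, and 2 rose and 5 fell after CLP in knockout-labelled lungs, with a median of -0.14. Over all genes tested 11.4% rose and 19.9% fell, with a median of -0.11, near that of the list. The 2 that rose, Ufd1 (0.58, adjusted p = 0.00241) and Nploc4 (0.49, adjusted p = 0.0145), encode partners of the segregase Vcp, which extracts ubiquitin-tagged proteins from complexes and membranes. Ufd1 read 461.8, 451.6 and 398.9 after CLP, against 300.5, 274.5 and 296.4 after sham, in knockout-labelled lungs, and 346.4, 285.1 and 303.2 after CLP and 365.1, 367.1 and 327.9 after sham in wild-type lungs. The difference of its CLP responses between genotypes passed (0.77, adjusted p = 0.0254). Those that fell were the shuttle receptors Ubqln2 (-0.68, adjusted p = 0.0176), Ubqln4 (-0.63, adjusted p = 0.0114) and Ubqln1 (-0.27, adjusted p = 0.0335), the ubiquitin-activating enzyme Uba6 (-0.60, adjusted p = 0.0406) and Ngly1 (-0.31, adjusted p = 0.0411), an enzyme that removes sugars from proteins on their way to the proteasome. Nfe2l1, the transcription factor that raises proteasome genes when proteasomes fail in cultured cells, had a difference of 0.13 (adjusted p = 0.432).

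Marker genes of cell types moved with these comparisons, and in whole lung a change in the number of cells of a type and a change in RNA per cell cannot be told apart. Neutrophil markers rose in both genotypes: 6 of 8 measured were called higher after CLP in each, and their summed signal was 31479 to 34766 after CLP and 10177 to 26408 after sham in knockout-labelled lungs, and 32609 to 35538 after CLP and 8567 to 14832 after sham in wild-type lungs. Alveolar macrophage markers rose in knockout-labelled lungs: the sum of the 4 of 6 measured was 7383 to 8082 after CLP and 1560 to 7549 after sham in knockout-labelled lungs, against 1513 to 1692 after CLP and 1272 to 1584 after sham in wild-type lungs. Most of the sum in knockout-labelled lungs was Chil3, with means of 6044 after CLP and 2832 after sham. The knockout-labelled sham array at 7549 was replicate 3, the one with the lowest Psmb8, Psmb9 and Psmb10 of its group. Of the 4, 3 were called higher after CLP in knockout-labelled lungs, and all 4 were higher than in wild-type lungs after CLP. Cardiac muscle markers, 5 of 5 measured, summed to 3000 to 5707 after CLP and 7254 to 11208 after sham in knockout-labelled lungs, against 2293 to 2932 after CLP and 2272 to 2809 after sham in wild-type lungs. Of the other lists, T and NK cell markers (8 of 8 measured) had 1 called higher and 1 lower after CLP in knockout-labelled lungs and 1 called higher in wild-type lungs, and B cell markers (3 of 4 measured) had 1 called lower in knockout-labelled lungs and none in wild-type lungs. Type 2 epithelium markers (5 of 6 measured), which include the surfactant protein genes that define lung, summed to 30498 to 35093 after CLP and 29527 to 33623 after sham in knockout-labelled lungs, against 35711 to 36327 after CLP and 34882 to 37245 after sham in wild-type lungs. Endothelial markers (5 of 5 measured) summed to 7838 to 8259 after CLP and 7215 to 8578 after sham in knockout-labelled lungs, against 10451 to 10611 after CLP and 9789 to 10298 after sham in wild-type lungs. Of these 5, Kdr and Tek were called lower after CLP in knockout-labelled lungs (-1.27, adjusted p = 0.00259, and -0.85, adjusted p = 0.0038) and lower than in wild-type lungs after CLP, and none was called in wild-type lungs. The other 3 had differences above 0 after CLP in knockout-labelled lungs, and the median of the 5 was 0.14. Kdr read 635.2, 444.1 and 271.7 after CLP, against 1053, 1296 and 805 after sham, in knockout-labelled lungs. Of the type 2 epithelium markers 1, Abca3, was called lower after CLP in knockout-labelled lungs (-0.55, adjusted p = 0.00144), and the other 4 had differences above 0. Of the cardiac markers 4 were called lower in that comparison. The alveolar macrophage receptor gene Marco had signals of 1.08 to 9.36 on the wild-type arrays, near 0. The part of these cell types in the proteasome results was not tested. Without replicate 3 of the knockout-labelled sham arrays, 13 of the 37 proteasome genes rose and 3 fell after CLP in knockout-labelled lungs: Psma4, Psma7 and Psmb3 joined those that rose, Psmd1 was no longer called, and Psmb8 and Psmb10 joined Psmb9 among those that fell. The difference of the responses then passed for 8 genes, above 0 for Psma2, Psma4, Psmb2, Psmb3, Psmb4, Psmd6 and Psmd14 and below 0 for Psmb9. After CLP 17 genes were then higher than in wild-type lungs, against 13 with all arrays, with Psma1, Psmb3, Psmd1 and Psmd13 added. That sham array is not among the arrays compared there, and the median difference was 0.21 in both fits. It enters that test through the spread shared by all groups.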

How the data were processed

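The deposited values are linear array intensities, MAS5 signals of 45101 probe sets on 12 arrays. Per the submitters' processing notes, Affymetrix Expression Console, GCOS and MAS5 were used, with no version or role given. Every array has the same trimmed mean (150.001, 2% trimmed), so the authors' deposited intensities were already scaled to a common level. Per the labels' protocols, total RNA was extracted with Trizol and biotin-labelled cRNA was made from 5 ug of it. Precision is limited by the 3 arrays a group.

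The 64 control probe sets were left out. Signals were analysed as log2(signal + 3.4669), where the added pseudocount is 10% of 34.669, the typical array median, and shrinks the log2 differences of dim probe sets. A probe set was tested if it exceeded the array median on at least 3 arrays, which left 24574. Symbols came from the platform annotation, matched to RefSeq (34741 of the 34945 probe sets with 1 symbol, while 932 had several and 9160 none). Each gene was represented by its probe set of highest mean log2 signal. limma 3.58.1 in R 4.3.3 (lmFit on all 4 groups, eBayes with trend) gave 5 comparisons, with p-values adjusted by Benjamini-Hochberg over the probe sets tested, and a gene was called at an adjusted p under 0.05. Values after ± are standard errors from this fit. On simulated data with 3 arrays a group, for CLP against sham in knockout-labelled mice over 24574 probe sets, 50 probe sets were changed at each size. The procedure called 12% of those changed by 0.5 on the log2 scale, 58% at 1 and 96% at 2, with 4 false calls. In the data 2553 probe sets were called higher and 4619 lower in this comparison, so the adjusted threshold is less strict there. The simulated shares and false calls therefore do not give the sensitivity or error of the reported fit. Replicate numbers did not pair arrays between groups. The deviations of same-numbered arrays from their group means had correlations of -0.1041 to 0.1192 over 18 pairs, 2 of them over 0.1.

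The members, the further gene lists and the cell type markers were chosen with earlier results of these data known. Named were all immunoproteasome, constitutive catalytic and activator genes, and in each other class up to 3 called genes of smallest p and the ends of the range. From the further lists, named were up to 4 called genes of smallest p a comparison, and Tap1, Tap2, Tapbp, Irf1, Nlrc5, Pomp and Nfe2l1. Genes outside this rule were named after their values were seen. Alternatives covered scaling, pseudocount, filter, moderation, array weights, probe set choice and leaving out each array.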

Additional observations from a re-analysis of the deposited data

Results flagged for a closer look

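The difference of the CLP responses between genotypes, given as the response of knockout-labelled lungs minus that of wild-type lungs, passed limma's test (Benjamini-Hochberg adjustment over all probe sets) for Psma2, at 0.432 on the log2 scale (adjusted p = 0.0275). A second probe set of Psmc4 had 0.6604 (adjusted p = 0.0321), from 0.46 in knockout-labelled and -0.20 in wild-type lungs, while the brightest probe set of Psmc4 had -0.11 (adjusted p = 0.817). A second probe set of Psmd6 had 0.6731 (adjusted p = 0.0447), beside 0.36 (adjusted p = 0.079) for the brightest one. Among the further lists the difference was 0.7658 for Ufd1 (adjusted p = 0.0254). Among the cell type markers it was -0.9118 for Mmp9 of neutrophils (adjusted p = 0.0234), -0.5817 for Abca3 of type 2 epithelium (adjusted p = 0.0345) and -1.0331 for Actc1 of cardiac muscle (adjusted p = 0.0365). Groups of 3 arrays are too small to test for single arrays that stand apart.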

How the results depend on the processing

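With limma throughout, the reported counts of called proteasome genes are 12 for CLP against sham in knockout-labelled lungs, 0 for CLP against sham in wild-type lungs, 1 for the difference of these responses, 2 for genotype after sham and 13 for genotype after CLP. The wild-type count was 0 in every alternative run. Centring arrays on their medians gave 29 for CLP in knockout-labelled lungs, where the median of all probe sets also moved up, and 6 for the difference of responses. Fitting array weights gave 19, 15, 8 (sham) and 20 (genotype after CLP). A fit of the groups compared alone gave 4 (Psma2, Psma6, Psmb4 and Psmd14) for CLP in knockout-labelled lungs and 1 for genotype after sham. The difference of responses had 0 calls with quantile normalisation, with no filter and without the trend, and 2 with the mean over a gene's probe sets. Genotype after sham had 1 call with no filter and without the trend. A replicate block, which treats same-numbered arrays as paired, gave 12, 0, 1, 1 (sham) and 12 (genotype after CLP).

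Leaving out each array in turn gave 7 to 16 calls for CLP in knockout-labelled lungs, lowest without replicate 2 of the knockout-labelled CLP arrays and highest without replicate 3 of the knockout-labelled sham arrays. It gave 0 to 8 for the difference of responses (highest without that same sham array), 1 to 3 for genotype after sham (highest without replicate 1 or 3 of the knockout-labelled sham arrays or replicate 3 of the knockout-labelled CLP arrays) and 7 to 17 for genotype after CLP (lowest without replicate 2 of the wild-type CLP arrays, highest without replicate 3 of the knockout-labelled sham arrays). An array outside the groups compared bears on a count through the spread shared by all groups. Among single genes, 2 called values changed sign: after CLP, Psmb1 was at -0.0658 with the mean over its probe sets, and Psmd11 at -0.1356 without probe sets of suffix x or s. In both, the other probe sets of the gene set the value. The remaining causes were not tested.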
